A study of Mus musculus with 4 samples.

Results

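Killer lectin-like receptors are the surface receptors by which natural killer (NK) cells and some memory T cells read other cells. Here 10 of their genes were followed: Klra4, Klra7, Klra8, Klra9, Klrb1c, Klrc1, Klrd1, Klre1, Klrg1 and Klrk1. They were taken by name from the 31053 genes of the feature list, and all 10 were present in both matrices. The cells were CD45+ leukocytes of the left ventricle of C57Bl6J mice. One group had received DOCA-salt, a regimen of the mineralocorticoid deoxycorticosterone acetate with salt that raises blood pressure, and the other group had received sham treatment. The labels give 4 biological replicates in each group and name no other allele or agent, and the hashtag antibodies that mark the replicates are read here as 4 mice per group. All mice of a group were pooled before sorting and loading, so each group is 1 library, and every difference between DOCA-salt and sham is also a difference between libraries, which cannot be told apart.

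All 10 genes code for C-type lectin-like proteins, and all but Klrg1 lie together in the NK gene complex. The Klra genes encode the Ly49 receptors, which bind class I MHC molecules or viral look-alikes of them. Inhibitory members carry a tyrosine motif in the cytoplasmic tail that recruits phosphatases, whereas activating members lack it and signal through adaptors such as DAP12. In mice each NK cell switches on its own mixture of Ly49 genes during development, together with or without the NKG2A receptor, a heterodimer of Klrc1 and Klrd1 that binds Qa-1. Klrk1 encodes the activating receptor NKG2D, Klrb1c the NK1.1 antigen, Klrg1 an inhibitory cadherin receptor of mature NK and effector T cells, and Klre1 a partner chain of Klri1 and Klri2.

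All 10 genes are on chromosome 6 (GRCm38, equal to mm10), between bases 122270596 and 130233322, a span of 7.96 Mb. The 4 Klra genes occupy 0.19 Mb of it and are all read from the minus strand. Klrg1 lies apart from the others: it ends at base 122282882, and the next member, Klrb1c, starts at base 128778485. Klrb1c lies at chr6:128778485-128789215 (minus), Klre1 at chr6:129577905-129585827 (plus), Klrd1 at chr6:129591782-129598775 (plus) and Klrk1 at chr6:129610323-129623864 (minus). For Klra4 (chr6:130043731-130067271), Klra8 (chr6:130115226-130129898), Klra9 (chr6:130178675-130193112), Klra7 (chr6:130218605-130233322), Klrc1 (chr6:129666015-129678973) and Klrg1 (chr6:122270596-122282882), all on the minus strand, the first 45 coding bases are shown because they hold the place where the activating and inhibitory Ly49 receptors part. Capitals mark the first in-frame TAT, TAC, TTT or TTC, the codons for tyrosine (TAT, TAC) and phenylalanine (TTT, TTC).
Klra4: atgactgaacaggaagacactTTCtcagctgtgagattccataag
Klra8: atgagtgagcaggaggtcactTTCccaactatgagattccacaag
Klra7: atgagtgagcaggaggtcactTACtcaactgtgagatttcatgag
Klra9: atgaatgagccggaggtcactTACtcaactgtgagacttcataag
Klrc1: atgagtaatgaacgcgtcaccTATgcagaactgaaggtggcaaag
Klrg1: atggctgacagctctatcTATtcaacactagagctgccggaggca
Klra4 (Ly49D) and Klra8 (Ly49H), the activating receptors, carry TTC at codon 8. Klra7 (Ly49G) and Klra9 (Ly49I), the inhibitory ones, carry TAC there, and the inhibitory Klrc1 and Klrg1 carry TAT at codons 8 and 7. Against Klra9, with positions counted from 1 at the A of the start codon, Klra4 differed at 9 of the 45 bases, Klra8 at 8 and Klra7 at 4. The substitution A23T was present in Klra4 and Klra8 and absent from Klra7. Such a codon within the first 15 is common, being found in 49.9% of 20066 protein-coding genes, and in 14.9% the first of them was TAT or TAC.

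Reads of near-identical genes can be assigned to the wrong one or lost. The share of all 50-base words of a member's transcript that also occur in another killer lectin-like receptor gene was 33.1% for Klra8, 28.3% for Klra9, 26.8% for Klrc1, 15.1% for Klra7, 5.44% for Klrb1c and 4.35% for Klra4. It was 0 for Klrd1, Klre1, Klrg1 and Klrk1. Over the first 500 bases, the end nearest to where a 5′ library is read, Klra8 shared 51.7% of its words, mostly with the pseudogene Klra14-ps. Over that stretch the share was 18.8% for Klrc1, 13.3% for Klrb1c (shared with Klrb1a), 12.6% for Klra9, 1.11% for Klra7 and 0.222% for Klra4. Values of Klra8, Klra9, Klrc1 and Klrb1c therefore carry this uncertainty, as do those of Klra7 through its whole transcript.

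The libraries held 7600 DOCA-salt and 4359 sham barcodes, with 29764964 and 13304511 unique molecular identifiers (UMIs, tags that each count 1 captured RNA molecule) on genes. After removal of poor cells and doublets and assignment to mice, 6864 DOCA-salt and 4080 sham cells were used, at a median of 3228 and 2812 UMIs per cell. The libraries shared 41 cell barcodes, 36 of them among the cells used. The cells formed 21 clusters, named from markers that include no killer lectin-like receptor gene, and no such gene entered the clustering. The NK-like cells numbered 1223 from DOCA-salt and 527 from sham hearts, at 99 to 514 cells per DOCA-salt mouse and 62 to 237 per sham mouse. All 12 NK markers were detected in them (sum 33090 to 36200 CPM in DOCA-salt mice and 34620 to 35510 CPM in sham mice), whereas Cd8a with Cd8b1 summed to at most 3.17 CPM in any mouse. CPM (counts per 1e6) give the UMIs of a gene for every 1e6 UMIs of its class in the same mouse.

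Across the leukocytes the receptor transcripts were highest in NK-like cells and a few clusters that share NK markers, and some members were also found in T cell, innate lymphoid and dendritic cell classes. Summed over all mice, NK-like cells held Klrb1c at 1381 CPM, Klrk1 at 1250 CPM, Klre1 at 986 CPM, Klra8 at 983 CPM, Klra4 at 891 CPM, Klrd1 at 831 CPM, Klra9 at 746 CPM, Klrc1 at 454 CPM, Klra7 at 417 CPM and Klrg1 at 359 CPM. B-like cells, a class of 5470 cells, held each member at 0.264 to 2.18 CPM, and at least 1 UMI of a member was present in 0.073% (Klra7, Klrg1) to 0.585% (Klrd1) of them. In NK-like cells the shares were 42.7% (Klra7) to 96.7% (Klrb1c). The source of the UMIs in B-like cells was not tested. Median depth was 2771 UMIs in B-like cells and 3328 in NK-like cells.

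**Figure D1:**
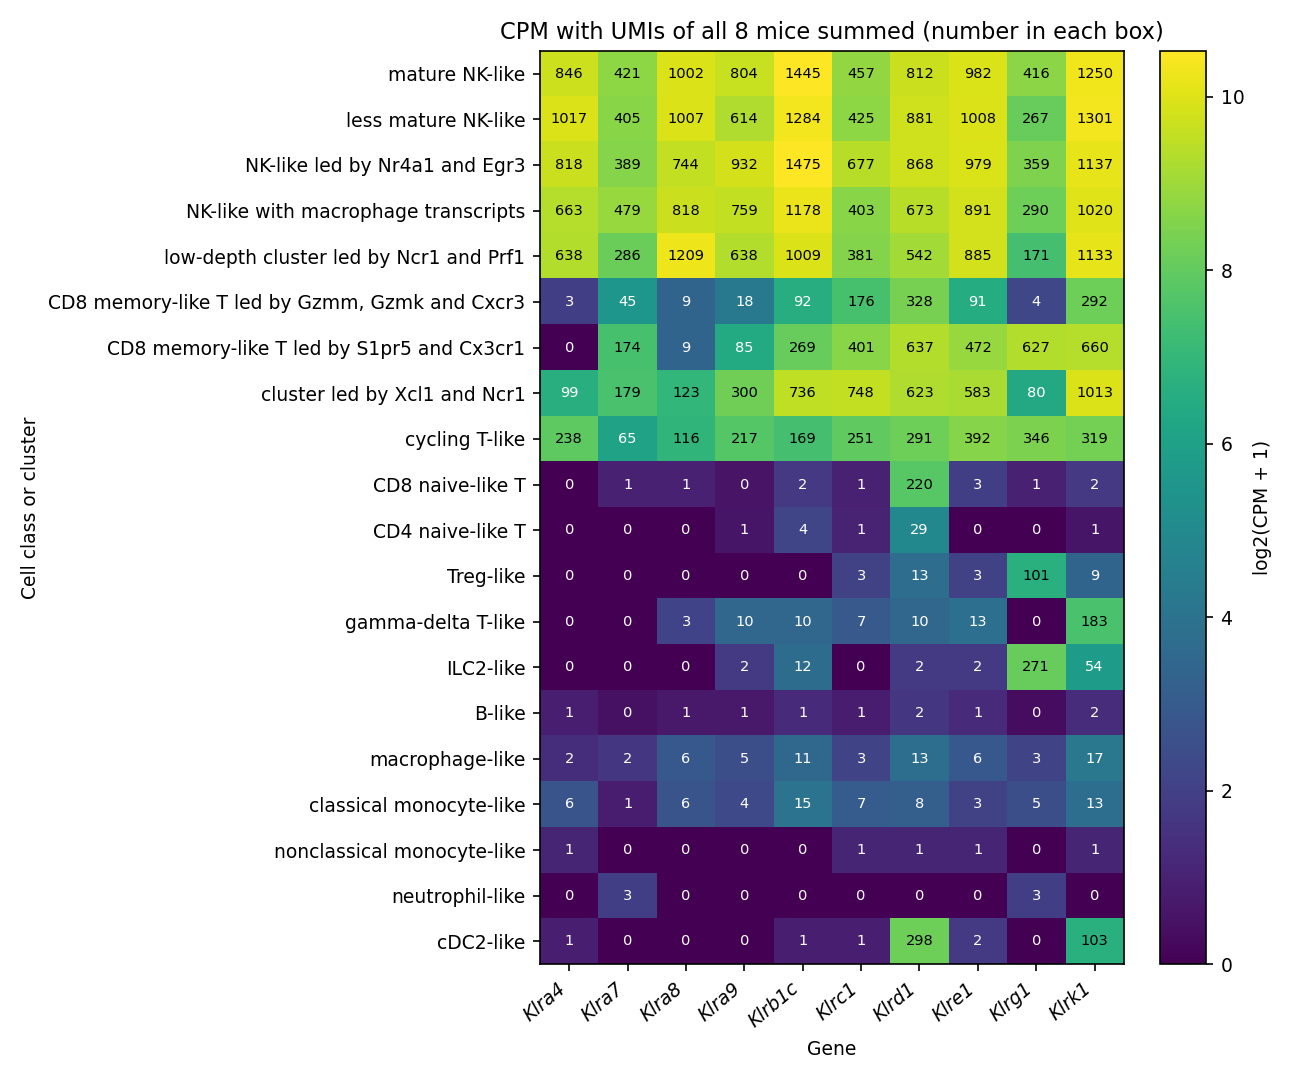
Each row is a cell class or cluster and each column a member; the number in a box is the CPM with the UMIs of all 8 mice summed, and the colour is log2(CPM + 1). The NK-like rows are high in all 10 columns, while B-like, monocyte-like and neutrophil-like rows stay at 15.3 CPM or less.

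Members differed in which other cells carried them. Klrd1 (CD94) was the only member above 3 CPM in CD8 naive-like T cells, at 222 ± 31.5 CPM in DOCA-salt mice and 211 ± 51.9 CPM in sham mice (SD, n = 4 each), whereas Klrc1, its partner chain, stood at 0.942 CPM there over all mice. CD4 naive-like T cells held Klrd1 at 27.4 ± 15.3 CPM in DOCA-salt mice and 25.0 ± 10.6 CPM in sham mice (SD, n = 4 each). The ranges of Klrd1 in these naive classes did not overlap, with the lowest mouse at 147 CPM in CD8 naive-like cells and the highest at 40.2 CPM in CD4 naive-like cells. Klrd1 also reached 298 CPM in Cd209a-bearing cDC2-like dendritic cells (225 to 312 CPM over 4 mice with at least 10 such cells), which carried Klrk1 at 103 CPM.

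Klrg1 outside NK-like cells was found in ILC2-like cells, type 2 innate lymphoid cells marked by Gata3 and Il1rl1, at 246 ± 87.2 CPM (SD, n = 3 DOCA-salt mice). Treg-like cells, regulatory T cells with Foxp3, held it at 101 CPM over all mice, in 6 of 62 cells. Klrk1 was found in gamma-delta T-like cells, at 204 ± 42.4 CPM (SD, n = 3 DOCA-salt mice). In these 3 classes no or too few sham mice had 10 cells, so sham levels are not given. A cluster of 75 cells led by Xcl1 and Ncr1, which shares markers of NK cells and of ILC1 and was given no cell type name, held Klrk1 at 1013 CPM, Klrc1 at 748 CPM and Klrb1c at 737 CPM, beside Klrg1 at 80.3 CPM and Klra4 at 99.2 CPM. In 36 cycling T-like cells, which also carried NK markers such as Ncr1, the members ranged from 65.4 CPM (Klra7) to 393 CPM (Klre1).

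The genes whose levels most resembled each member across the 20 cell classes, among 6909 genes and outside the killer lectin-like receptor genes, included several known NK genes. For the activating Klra4 and Klra8 the closest was Styk1 (Pearson r 0.967 and 0.973, a description over 20 classes that share libraries). Klra9 and Klrb1c came closest to Kcnj8 (0.974 and 0.966), Klra7 and Klrc1 to Samd3 (0.959 and 0.970) and Klre1 to Ccl5 (0.968). Klrk1 came closest to Kcnj8 (0.925), Klrd1 to Crtam (0.872) and Klrg1 to Actr1b (0.913). Among the members themselves Klrd1 and Klrg1 were the least alike pair (0.516) and Klrc1 and Klre1 the most alike (0.985).

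The main comparison asks whether the receptors of cardiac NK cells differ after DOCA-salt. In NK-like cells none of the 10 members passed the test (edgeR quasi-likelihood test, adjusted p under 0.05), and the groups overlapped for every one. Klra4, Klrd1 and Klrg1 had an unadjusted p under 0.05 (edgeR), 3 members in all, as had 603 of the 6426 genes tested, or 9.38%. DESeq2 also called 0 members. Of all 6426 genes tested 63 were called, or 0.98%, and 6.02% of genes had groups that did not overlap in CPM. The log2 change of DOCA-salt over sham was below 0 for 8 of the 10 members, with a median of -0.16, where the median of all genes was -0.0017.

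**Figure D2:**
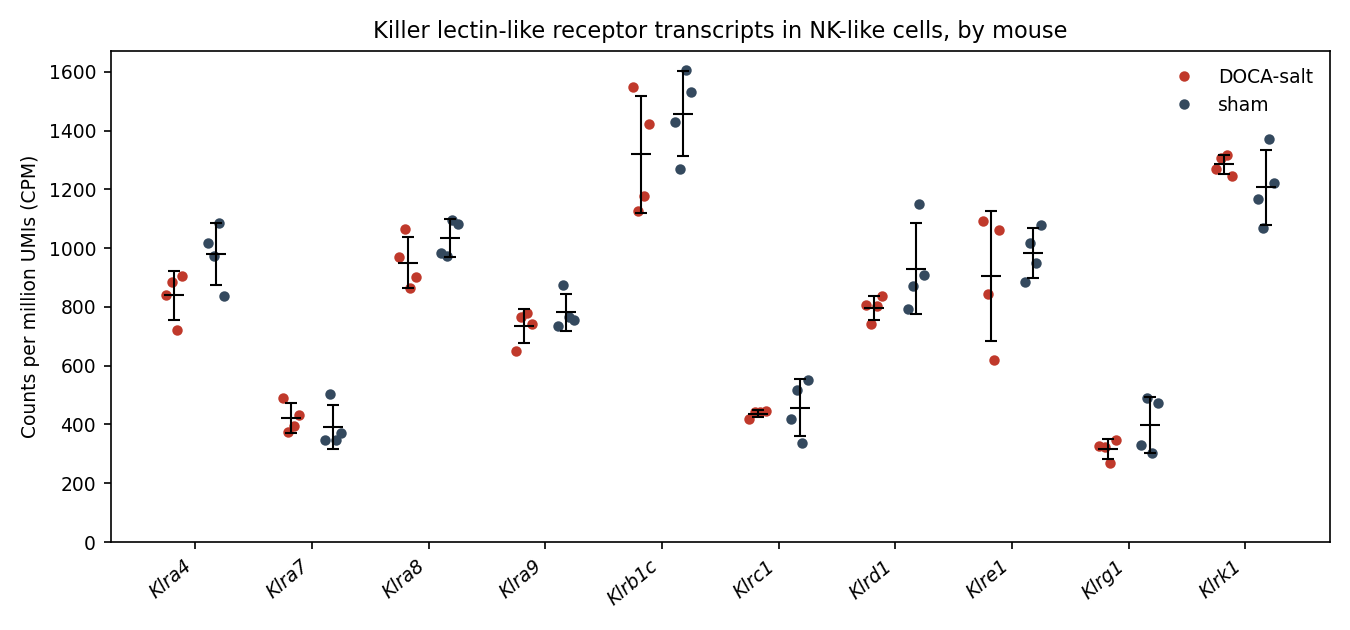
Each point is 1 mouse, DOCA-salt left of sham for each gene, on a linear CPM axis; the black bar and whiskers are the mean and SD of 4 mice. The points of both groups overlap for all 10 members, and the sham points of Klrg1 run from 302 to 490 CPM against 268 to 348 CPM in DOCA-salt mice.

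Among the activating Ly49 genes, Klra4 (Ly49D, a receptor for H-2D molecules) had 841, 886, 722 and 907 CPM in DOCA-salt mice, against 1016, 975, 1087 and 837 CPM in sham mice. Of the sham mice 3 lay above all DOCA-salt mice, and sham mouse 4 lay among them (log2 change -0.24 ± 0.09 SE, edgeR adjusted p = 0.312). Klra8 (Ly49H, the receptor for a cytomegalovirus protein) averaged 951 ± 88.0 CPM in DOCA-salt mice and 1034 ± 64.1 CPM in sham mice (SD, n = 4 each), a log2 change of -0.16 ± 0.08 SE.

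Of the inhibitory Ly49 genes, Klra7 (Ly49G) had 491, 374, 395 and 434 CPM in DOCA-salt mice and 346, 504, 347 and 371 CPM in sham mice. It was 1 of 2 members with a change above 0, of 0.06 ± 0.11 SE on the log2 scale. Klra9 (Ly49I) averaged 734 ± 57.2 CPM in DOCA-salt mice and 782 ± 63.0 CPM in sham mice (SD, n = 4 each), a log2 change of -0.14 ± 0.09 SE.

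The CD94 and NKG2 chains followed. Klrd1 had 807, 741, 803 and 837 CPM in DOCA-salt mice and 792, 870, 1152 and 908 CPM in sham mice, where only sham mouse 1 fell within the DOCA-salt range (log2 change -0.25 ± 0.09 SE, edgeR adjusted p = 0.284). Its inhibitory partner Klrc1 was nearly level in DOCA-salt mice, at 418, 441, 442 and 446 CPM, and spread from 337 to 551 CPM in sham mice (log2 change -0.16 ± 0.10 SE). Klrk1 (NKG2D), the receptor for stress-induced ligands, averaged 1286 ± 32.6 CPM in DOCA-salt mice and 1208 ± 128 CPM in sham mice (SD, n = 4 each), a log2 change of 0.05 ± 0.08 SE with a 95% interval from -0.10 to 0.21.

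Klre1 had its lowest value, 620 CPM, in DOCA-salt mouse 3, and otherwise 843 to 1094 CPM in DOCA-salt and 887 to 1080 CPM in sham mice (log2 change -0.15 ± 0.11 SE). Klrb1c (NK1.1) averaged 1319 ± 199.9 CPM in DOCA-salt mice and 1458 ± 145 CPM in sham mice (SD, n = 4 each), a log2 change of -0.18 ± 0.09 SE. Klrg1 had the largest change of the 10, with 326, 322, 268 and 348 CPM in DOCA-salt mice against 331, 490, 302 and 472 CPM in sham mice. Sham mice 2 and 4 lay above all DOCA-salt mice and sham mice 1 and 3 lay among them (log2 change -0.40 ± 0.12 SE, edgeR adjusted p = 0.106). Without sham mouse 1 the change was -0.50 (edgeR adjusted p = 0.0259) and without sham mouse 3 it was -0.48 (edgeR adjusted p = 0.0492), whereas without sham mouse 2 or 4 it was -0.29 and -0.31 (edgeR adjusted p = 0.460 and 0.457).

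NK-like cells split further into mature cells (S1pr5, Zeb2 and Cx3cr1 among the markers, 1040 cells), less mature cells (Cd27, Ltb, Emb, Thy1 and Cxcr3, 559 cells) and unnamed remainders. A mature marker counted in a subcluster if at least 15% of its cells had it and its level was at or above the NK-like mean. Of the 11 listed, Cma1, Itgam and Prdm1 did not count in the mature subcluster led by Srm and Tnfrsf9. Gzmb, Prf1 and Prdm1 did not count in the mature subcluster led by Dusp1 and Fos. A less mature marker needed the same share of cells and a log2 ratio of at least 1 to the other NK-like cells. Of the 11 listed, Cd7, Tcf7, Xcl1, Ctla2a, Cd160 and Il7r did not count in the less mature subcluster. Xcl1 and Cd160 counted in an unnamed subcluster led by Nr4a1 and Egr3. The CD11b antibody, which took no part in the split and rises with NK maturation, was higher on mature than on less mature cells in 8 of 8 mice. The antibody averaged 613 ± 16.9 counts per mature cell in DOCA-salt mice and 809 ± 69.1 in sham mice, and 501 ± 49.2 and 534 ± 104 counts per less mature cell (SD, n = 4 each). The RNA of its gene, Itgam, a listed mature marker, went partly the other way. Itgam was at or above the NK-like mean in the less mature subcluster. Mature cells were 61.3% ± 3.60 of NK-like cells in DOCA-salt and 55.4% ± 2.70 in sham mice (SD, n = 4 each; two-sided exact permutation p = 0.0286, the smallest possible, and 0.1 after adjustment over 14 measures per mouse). That difference turned to -7.16 percentage points with a finer split and to -6.51 with doublets kept.

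As a description of the split, and with no test because clustering made it, Klrg1 was the member that followed maturity. It averaged 428 ± 105 CPM in mature and 255 ± 80.3 CPM in less mature cells (SD, n = 8 mice) and was higher in the mature cells of 8 of 8 mice. Klra9 averaged 816 ± 82.0 CPM in mature and 637 ± 97.7 CPM in less mature cells and was higher in mature cells of 7 of 8 mice, and Klrb1c did so in 7 of 8 mice as well (1459 ± 209.5 and 1289 ± 172 CPM). Klra4 ran the other way, with 846 ± 117 CPM in mature and 1037 ± 184 CPM in less mature cells, lower in mature cells of 6 of 8 mice. The other 6 members had mean log2 ratios between -0.15 and 0.15.

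**Figure D3:**
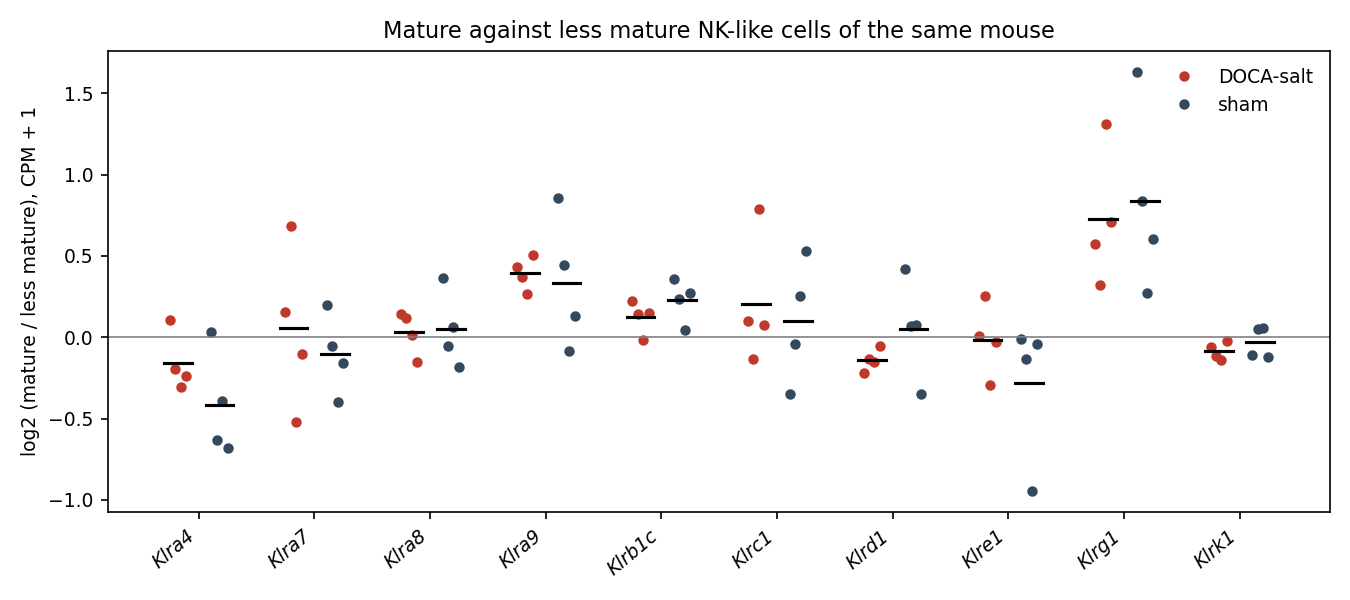
Each point is 1 mouse, DOCA-salt left of sham, and gives the log2 ratio of a member's CPM + 1 in mature over less mature NK-like cells of that mouse, with a bar for the mean of 4 mice. All 8 points of Klrg1 lie above 0, between 0.27 and 1.63.

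Within mature NK-like cells Klrg1 fell, the only member called there. It had 384, 348, 346 and 399 CPM in DOCA-salt mice against 459, 609, 324 and 554 CPM in sham mice. Sham mice 1, 2 and 4 lay above all DOCA-salt mice and sham mouse 3 below them all. The log2 change was -0.48 ± 0.12 SE (edgeR adjusted p = 0.0477), in a class where 48 of 4705 genes were called, or 1.02%, and 5.4% had groups that did not overlap. The call rests close to the threshold: DESeq2 gave an adjusted p of 0.0809 for a change of -0.47. All the other clusterings and cell filters tried ended it as well, with log2 changes from -0.50 to -0.36 and edgeR adjusted p from 0.0881 to 0.268. Leaving out any 1 mouse other than sham mouse 3 also ended it, and the change then ran from -0.37 without sham mouse 2 to -0.53 without sham mouse 1, with edgeR adjusted p from 0.0508 to 0.339. Without sham mouse 3 the change was -0.58 (edgeR adjusted p = 0.00847).

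In the same cells Klrd1 and Klrb1c had unadjusted p under 0.05 but did not pass, with log2 changes of -0.25 ± 0.10 SE (edgeR adjusted p = 0.373) and -0.21 ± 0.10 SE (edgeR adjusted p = 0.565). Of all 4705 genes tested in these cells, 393 or 8.35% had an unadjusted p under 0.05 (edgeR). The remaining 7 members had log2 changes from -0.15 to 0.15. In less mature cells none of the 10 members was called (edgeR, with 2 members at an unadjusted p under 0.05 and DESeq2 at 0), where 22 of 3359 genes, or 0.655%, were, and 5.03% had groups that did not overlap. An unadjusted p under 0.05 (edgeR) was found for 304 of these genes, or 9.05%. Klra4 had 813, 982, 834 and 1036 CPM in DOCA-salt mice against 954, 1288, 1300 and 1090 CPM in sham mice there (log2 change -0.32 ± 0.11 SE, edgeR adjusted p = 0.272). Klrg1 changed by -0.31 ± 0.18 SE on the log2 scale in less mature cells and did not pass (edgeR adjusted p = 0.649). Whether a member's ratio of mature to less mature cells differed between DOCA-salt and sham was compared over mice, and no member had a p under 0.05 in a two-sided exact permutation test (lowest unadjusted p = 0.2, over 10 tests).

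Several measures moved with the groups beside these values, and their part in the Klrg1 result was not tested. Of the mature cells 61.4% in DOCA-salt and 47.2% in sham hearts were of a subcluster led by Srm and Tnfrsf9, and the others of one led by Dusp1 and Fos. The summed level of 6 neutrophil markers in NK-like cells was 36.6 to 43.6 CPM in DOCA-salt mice and 0 to 6.997 CPM in sham mice, and that of 7 classical monocyte markers, which include Ly6c2 and Plac8, known in NK cells too, was 1789 to 2556 CPM in DOCA-salt and 1177 to 1660 CPM in sham mice, with none of either list at 0 over all mice. Other lists were lower in every DOCA-salt mouse than in any sham mouse. In NK-like cells the 11 markers of CD8 memory T cells, a list that holds cytotoxic genes of NK cells too, summed to 22630 to 25000 CPM in DOCA-salt and 26460 to 30430 CPM in sham mice. There 4 cDC1 markers, which include Irf8, summed to 532 to 714 CPM in DOCA-salt and 741 to 1124 CPM in sham mice. The 4 cycling markers summed to 28.02 to 55.5 CPM in DOCA-salt and 61.1 to 80.5 CPM in sham mice, and 4 erythroid markers to 0 to 23.9 CPM in DOCA-salt and 25.2 to 46.7 CPM in sham mice. In mature NK-like cells the neutrophil list summed to 27.0 to 39.9 CPM in DOCA-salt and 0 to 4.35 CPM in sham mice (Mmp9 and Cxcr2 at 0), and 7 gamma-delta T cell markers to 274 to 313 CPM and 197 to 270.0 CPM. Lower there without overlap were the CD8 memory T list (23940 to 24850 and 27730 to 30740 CPM) and the cDC1 list (594 to 777 and 841 to 1293 CPM, Xcr1 at 0). So were the cycling list (27.0 to 52.5 and 56.6 to 73.9 CPM, Mki67 at 0), the erythroid list (0 to 1.24 and 22.5 to 47.9 CPM) and the CD11b antibody counts given above. C1qa, a macrophage transcript, averaged 85.3 ± 30.6 CPM in NK-like cells of DOCA-salt mice and 63.1 ± 26.4 CPM of sham mice (SD, n = 4 each), with overlap.

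The share of NK-like cells in which a member was detected gave no call either. With each cell thinned to 1000 UMIs, so that depth was equal, Klrg1 was detected in 24.4% ± 2.43 of cells in DOCA-salt and 28.3% ± 6.14 in sham mice, and Klrd1 in 52.6% ± 1.93 and 57.5% ± 4.37 (SD, n = 4 each). The share for Klrk1 was 71.9% ± 0.903 in DOCA-salt and 69.4% ± 4.49 in sham mice. No member had a p under 0.05 in a two-sided exact permutation test over mice, the lowest unadjusted p of the 10 tests being 0.0857 for Klrd1. Without thinning Klrg1 was found in 49.4% of cells in DOCA-salt and 52.1% in sham mice, and B-like cells thinned in the same way held it in 0.0225%. Thinning left out 13 DOCA-salt and 8 sham cells.

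Single NK-like cells carried mixtures of the 4 Ly49 members. At 1000 UMIs per cell, 11.3% of 1729 cells held none of Klra4, Klra7, Klra8 and Klra9, 33.5% held 1, 36.0% held 2, 16.1% held 3 and 3.07% held all 4. The mean number per cell was 1.65 in DOCA-salt and 1.70 in sham cells, with single mice between 1.60 and 1.72 and between 1.68 and 1.73. These are numbers detected at that depth and lie below the numbers expressed. In B-like cells 99.7% held none.

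Some receptors were found together more or less often than apart. Of the 45 pairs of members, 9 had 95% Clopper-Pearson intervals that did not overlap between cells with and without the first gene, 4 higher and 5 lower. These intervals cover counting error only and treat cells as independent, and the values are a description without a test. The widest gap concerned the inhibitory Klrc1 and the activating Klra4. Klrc1 was detected in 15.6% (13.1 to 18.4%) of 774 cells with a Klra4 UMI and in 35.2% (32.2 to 38.3%) of 955 cells without one, and was lower in Klra4-bearing cells of 8 of 8 mice.

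Cells with Klra4 held Klrc1 in 14.3%, 19.6%, 9.52% and 17.0% in DOCA-salt mice and in 8.47%, 14%, 9.38% and 18% in sham mice. Cells without Klra4 held it in 35.8%, 36.4%, 42.9% and 29.4% in DOCA-salt mice and in 33.3%, 45.9%, 43.3% and 36.2% in sham mice, so the shares of both kinds of cell did not overlap over the 8 mice. The gap was present in mature cells (16.4% with and 38.1% without Klra4) and in less mature cells (14.7% with and 31.4% without). Klrc1 was also less frequent in cells with Klra8 (22.4%, against 30.9% without) and with Klra7 (21.3%, against 28.1% without), but not with Klra9 (27.4%, against 25.7% without), the Ly49I receptor. By mouse, Klrc1 was lower with Klra8 in 7 of 8, with Klra7 in 7 of 8 and with Klra9 in 4 of 8.

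**Figure D4:**
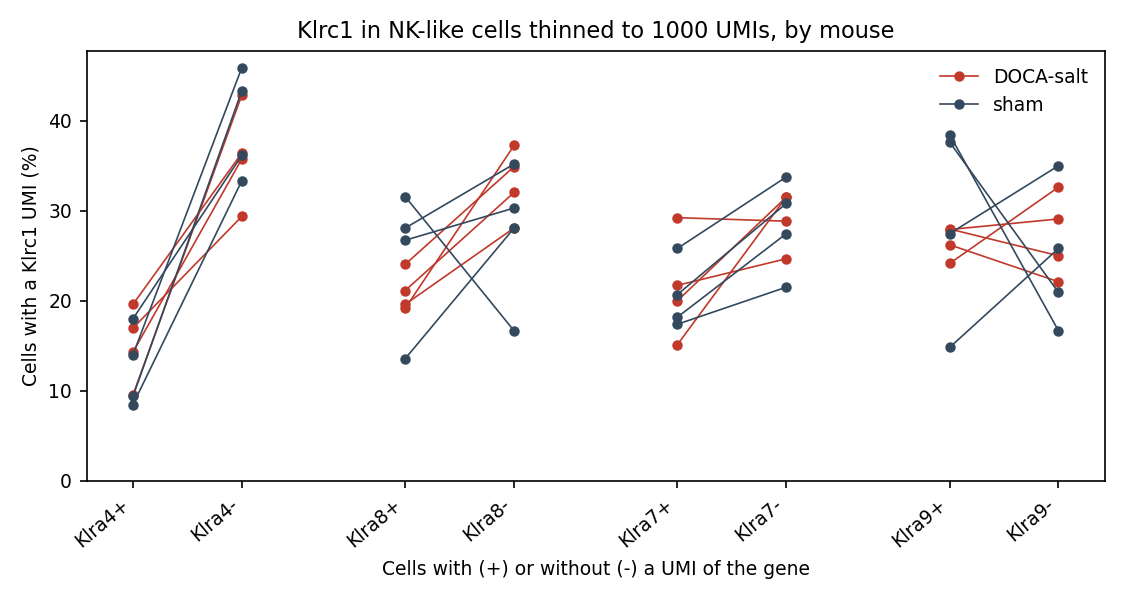
Each point is 1 mouse, red for DOCA-salt and dark blue for sham, with a line joining the points of a mouse, and gives the percent of NK-like cells with a Klrc1 UMI at 1000 UMIs per cell, among cells with (+) or without (-) a UMI of each Ly49 member. For Klra4 the cells with a UMI lie at 8.47 to 19.6% and the cells without one at 29.4 to 45.9%.

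The other pairs whose intervals stood apart had smaller gaps. Klrg1 was more frequent in cells with Klra9 (32.0%, against 21.2% without, but lower in 1 of 8 mice) and with Klrb1c (28.2%, against 19.7% without, lower in 1 of 8). It was less frequent in cells with Klra4 (22.5%, against 28.8% without, lower in 7 of 8 mice). On average Klrg1, Klra9 and Klrb1c were higher, and Klra4 lower, in mature than in less mature cells. The part of maturity in these Klrg1 pairs was not tested. The activating pair occurred together in the pooled cells, with Klra8 in 57.2% of cells with Klra4 and 48.6% of cells without. In sham mouse 3 the order was reversed (53.1% with and 70% without). The inhibitory pair did the reverse, with Klra9 in 36.7% of cells with Klra7 and 46.6% of cells without, and was lower in 7 of 8 mice. Klrd1 was found in 55.3% of cells with and 47.7% of cells without Klrb1c, and was lower with Klrb1c in 2 of 8 mice.

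NK1.1, the protein of Klrb1c, was also measured by an antibody, 1 of 16 surface antibodies in the panel. It made up 12.1%, 14.4%, 12.5% and 14.3% of all surface antibody counts of NK-like cells in DOCA-salt mice and 13.4%, 13.8%, 16.1% and 14.7% in sham mice. The groups overlapped (13.3% ± 1.22 and 14.5% ± 1.21, SD, n = 4 each; two-sided exact permutation p = 0.229, adjusted p = 0.356 over 14 measures). As counts per cell it averaged 403 ± 31.1 in DOCA-salt and 469 ± 32.8 in sham mice (exact permutation p = 0.0571, adjusted p = 0.133), and per mature cell 387 ± 22.9 and 491 ± 40.02, where the groups did not overlap (exact permutation p = 0.0286, adjusted p = 0.1). The same antibody averaged 22.7 ± 2.88 counts per B-like cell, which lacks NK1.1, in DOCA-salt and 29.6 ± 3.85 in sham mice, without overlap (exact permutation p = 0.0286, adjusted p = 0.1), so the antibody counts of these cells also differed between the libraries. The part of that difference in the NK-like values was not tested.

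By cell class, antibody and RNA were set side by side. NK1.1 stood at 418 counts per mature and 428 per less mature NK-like cell, with Klrb1c at 1445 and 1284 CPM. The cluster led by Xcl1 and Ncr1 had 506 counts per cell, with Klrb1c at 737 CPM, but also more surface antibody than either NK-like class (4587 counts per cell, against 2874 per mature and 3080 per less mature NK-like cell), and NK1.1 was 11.03% of it, against 14.6% in mature cells. CD8 memory-like T cells led by S1pr5 and Cx3cr1 held 119 counts per cell and those led by Gzmm, Gzmk and Cxcr3 held 86.7, beside the 34.9 counts of CD8 naive-like and 25.6 of B-like cells. Macrophage-like cells reached 110 counts with Klrb1c at 10.8 CPM, at 7352 surface antibody counts per cell.

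Among NK-like cells pooled over mice, the antibody signal went up with the Klrb1c UMIs of the cell. It was 312 counts per cell in the 57 cells with no Klrb1c UMI, 374 in those with 1 or 2, 412 in those with 3 to 5 and 462 in those with 6 or more. Within mice, the cells with 6 or more UMIs had more counts per cell than those with 3 to 5 in 8 of 8 mice. The cells with 3 to 5 had fewer counts than those with 1 or 2 in DOCA-salt mouse 3 and in sham mice 1 and 2. Median depth went up over the same bins, at 2753, 2918, 3276 and 3644 UMIs per cell, and its part in this order was not tested. Cells with no Klrb1c UMI thus stained at more than the 25.6 counts of B-like cells. As a share of surface antibody NK1.1 was 11.9%, 12.6%, 14.1% and 14.2% over the bins, pooled over mice. From 3 to 5 UMIs to 6 or more, that share fell in DOCA-salt mouse 3 (13.76 to 12.95%) and mouse 4 (14.58 to 14.04%). It also fell in sham mouse 1 (14.23 to 12.33%) and mouse 4 (15.48 to 14.75%), and it rose in the other mice.

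CD8 memory-like T cells were the only class tested outside NK-like cells. They carried Cd8a, Ccl5, Gzmk and Nkg7 among their markers and numbered 172 in DOCA-salt and 51 in sham hearts. DOCA-salt mouse 3 and sham mouse 2 had 9 cells each and were left out, which left 3 mice per group with 11 to 72 cells. Over these 6 mice Klre1 and Klrg1 fell in DOCA-salt, 2 of the 6 members that could be tested, in a class where 6 of 1677 genes were called, or 0.358%. With the 2 small samples kept, a fit chosen after seeing the data, 0 members and 1 gene in all were called. Among the mice tested, Klrc1, Klrd1, Klre1 and Klrg1 had groups that did not overlap, as had 15.9% of all genes. All 6 tested members had log2 changes below 0, with a median of -0.83, where the median of all genes was 0.0015.

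Klre1 had 97.0, 76.9 and 159 CPM in DOCA-salt mice against 321, 388 and 398 CPM in sham mice, a log2 change of -1.63 ± 0.27 SE (edgeR adjusted p = 0.00819). Every DOCA-salt mouse tested lay below every sham mouse tested, at a fitted ratio of 0.324. Of the mice left out, DOCA-salt mouse 3 had 51.9 CPM and sham mouse 2 had 0 of 48865 UMIs, which allows up to 61.4 CPM, under the 3 DOCA-salt mice tested. With both kept the log2 change was -1.40 (edgeR adjusted p = 0.401). Klrg1 had 57.2, 126 and 70.7 CPM in DOCA-salt mice against 161, 166 and 418 CPM in sham mice, a log2 change of -1.79 ± 0.37 SE (edgeR adjusted p = 0.0342). DOCA-salt mouse 3 had 86.5 CPM, and sham mouse 2, at 40.9 CPM from 2 UMIs, lay below every DOCA-salt mouse. With both kept Klrg1 was too low to be tested.

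The calls of Klre1 and Klrg1 also changed with other settings. Sham mouse 4 stood far above the others for Klrg1, and without it the change of Klrg1 was -1.07 (edgeR adjusted p = 0.561) and that of Klre1 -1.55 (edgeR adjusted p = 0.0746). Without sham mouse 1 the adjusted p was 0.0555 for both, without DOCA-salt mouse 4 that of Klrg1 was 0.146, and DESeq2 kept Klre1 (adjusted p = 0.00529) but not Klrg1 (adjusted p = 0.0677). Klr genes in the clustering gave changes of -1.09 for Klre1 (edgeR adjusted p = 0.28) and -1.15 for Klrg1 (edgeR adjusted p = 0.232). Clustering each library on its own gave -1.58 (edgeR adjusted p = 0.142) and -0.97 (edgeR adjusted p = 0.544), and a clustering resolution of 0.5 gave -1.50 (edgeR adjusted p = 0.073) and -1.38 (edgeR adjusted p = 0.167), so that each ended both calls. With doublets kept Klre1 was still called (log2 change -1.91, edgeR adjusted p = 0.02) and Klrg1 was not (log2 change -1.68, edgeR adjusted p = 0.0768).

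Klrc1 had 197, 112 and 161 CPM in DOCA-salt mice and 250, 388 and 447 CPM in sham mice, and did not pass (log2 change -1.15 ± 0.26 SE, edgeR adjusted p = 0.0633). Of the mice left out, DOCA-salt mouse 3 had 277 CPM, above sham mouse 1, and sham mouse 2 had 307 CPM. Its partner Klrd1 had 396, 280 and 288 CPM in DOCA-salt and 446, 536 and 438 CPM in sham mice (log2 change -0.49 ± 0.20 SE, edgeR adjusted p = 0.398), while DOCA-salt mouse 3 had 658 CPM, above all sham mice, and sham mouse 2 had 614 CPM. Klrk1 and Klrb1c overlapped between the groups, with log2 changes of -0.50 ± 0.28 SE (edgeR adjusted p = 0.592) and -0.35 ± 0.44 SE (edgeR adjusted p = 0.887). The 4 Ly49 members were too low to test. Klra4 was at 3 UMIs in DOCA-salt cells of the class and at 0 in sham cells, while Klra7, the highest of them, had 37.3, 21.0 and 95.1 CPM in DOCA-salt mice and 17.9, 222 and 59.7 CPM in sham mice.

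**Figure D5:**
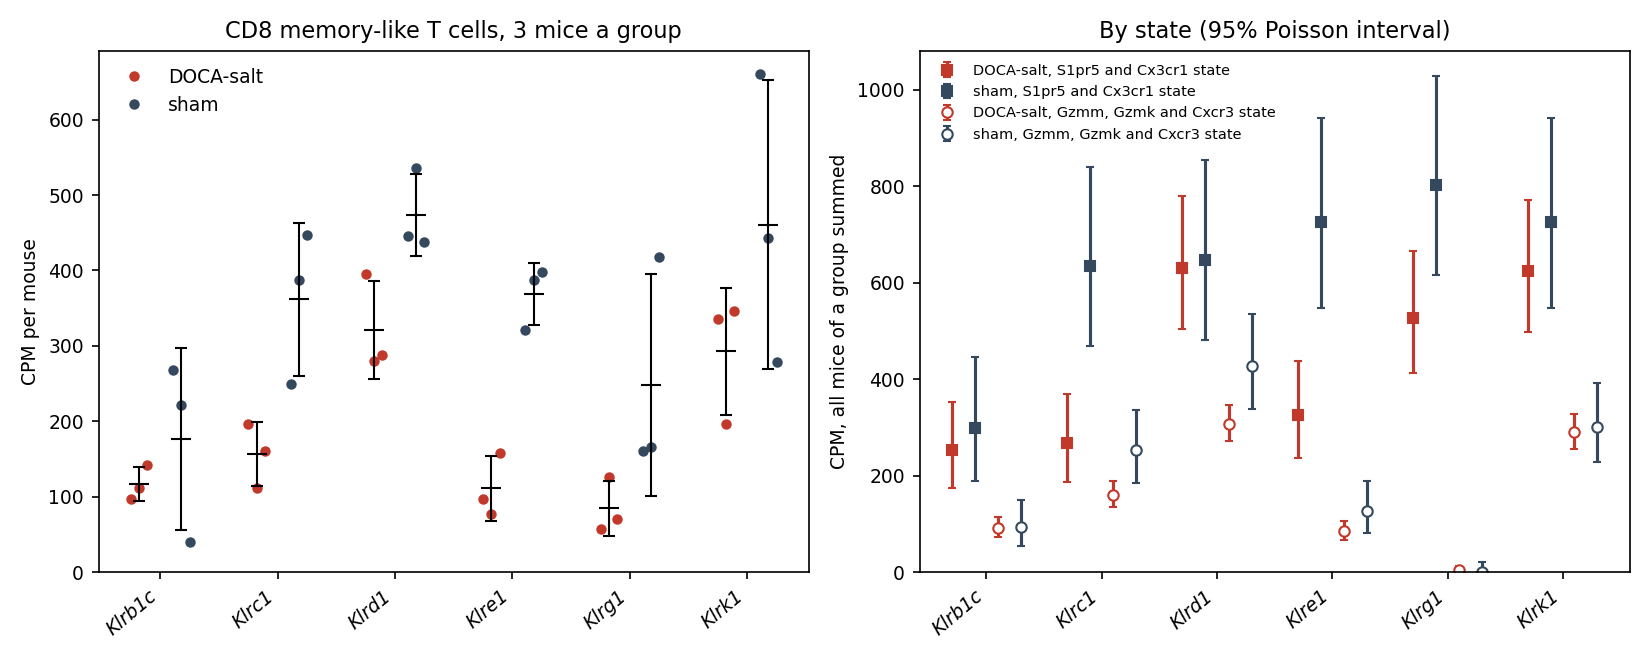
Left, CPM of the tested members in CD8 memory-like T cells, each point 1 of the 3 mice tested per group with DOCA-salt left of sham, and bars for the mean and SD. Right, CPM by state with the mice of a group summed and 95% Poisson intervals: for Klrg1 the S1pr5 and Cx3cr1 state stands at 527 CPM in DOCA-salt and 803 CPM in sham cells, and the other state at 4.56 and 0 CPM. Without sham mouse 4 the sham level of Klrg1 in the S1pr5 and Cx3cr1 state is 450 CPM, below the DOCA-salt level.

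The class held a pair of states, and the receptors differed between them. Cells led by S1pr5 and Cx3cr1 carried Klrg1 at 627 CPM and Klre1 at 472 CPM over all mice, whereas cells led by Gzmm, Gzmk and Cxcr3 carried Klrg1 at 3.77 CPM and Klre1 at 91.5 CPM. The S1pr5 and Cx3cr1 state made up 15.9%, 21.4%, 22.2% and 18.1% of the class in DOCA-salt mice and 63.6%, 11.1%, 41.7% and 36.8% in sham mice. That share was higher in sham mice 1, 3 and 4, the mice of the test, than in any DOCA-salt mouse, and lower in sham mouse 2 (19.4% ± 2.96 and 38.3% ± 21.6, SD, n = 4 each; two-sided exact permutation p = 0.143, adjusted p = 0.286 over 14 measures). Over all cells it was 31 of 172 (18.02%, 95% Clopper-Pearson interval 12.6 to 24.6%) in DOCA-salt and 20 of 51 (39.2%, 25.8 to 53.9%) in sham hearts. These intervals treat cells as independent and leave out the spread between mice.

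Within the S1pr5 and Cx3cr1 state, with cells of a group summed and Poisson intervals for counting error only, Klre1 stood at 327 CPM (237 to 438) in DOCA-salt and 725 CPM (548 to 941) in sham cells. Klrc1 stood at 267 CPM (187 to 370) and 634 CPM (469 to 839), and Klrg1 at 527 CPM (412 to 665) and 803 CPM (615 to 1029). These sums rest on 1 to 13 cells per mouse and in part on single mice. Klrg1 had 576, 467, 327 and 596 CPM in DOCA-salt mice and 356, 785, 542 and 1278 CPM in sham mice, and sham mouse 4 gave 42 of the 62 sham UMIs. Without that mouse the sham level was 450 CPM (275 to 696), below that of DOCA-salt cells. Klre1 had 236, 29.2, 0 and 723 CPM in DOCA-salt mice and 673, 0, 963 and 700.1 CPM in sham mice, where the counts of 0 allow up to 196 CPM in DOCA-salt mouse 3 and 1177 CPM in sham mouse 2. DOCA-salt mouse 4 gave 34 of the 44 DOCA-salt UMIs. Without that mouse the DOCA-salt level of Klre1 was 114.0 CPM (54.7 to 209.6). Klrc1 had 419, 58.4, 327 and 277 CPM in DOCA-salt mice and 317, 1177, 482 and 913 CPM in sham mice, and without sham mouse 4 the sham level was 428 CPM (258 to 668). The groups overlapped for all 3 genes.

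In the Gzmm, Gzmk and Cxcr3 state Klrc1 stood at 161 CPM (135 to 189) in DOCA-salt and 252 CPM (185 to 337) in sham cells and Klre1 at 84.3 CPM (66.2 to 106) and 126 CPM (80.0 to 189). Sham mouse 4 held 17 of the 23 sham UMIs of Klre1 there, and without it the sham level was 52.4 CPM (19.2 to 114), below that of DOCA-salt cells. With too few mice of 10 cells in each state, no test was made within states, and the part of the mixture in the class-wide changes was not tested. The 12 NK markers summed to 5031 to 5992 CPM in the class in DOCA-salt and 8331 to 9973 CPM in sham mice, none of them at 0, beside Cd8a with Cd8b1 at 1370 to 1841 CPM and 1071 to 1785 CPM. The 11 markers of CD8 memory T cells summed to 15490 to 21290 CPM in DOCA-salt and 22720 to 31560 CPM in the sham mice tested.

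Beyond the 10 members, 16 of 19 listed other killer lectin-like receptor genes were in the matrix and 8 had counts enough to test in NK-like cells. None was called (edgeR), and their median log2 change was -0.02. Klra3 (Ly49C) averaged 308 ± 33.8 CPM in DOCA-salt and 381 ± 41.2 CPM in sham mice (SD, n = 4 each; log2 change -0.33 ± 0.10 SE, edgeR adjusted p = 0.163). Klrc2 (NKG2C) averaged 453 ± 37.3 and 453 ± 61.9 CPM, Klri2, a partner of Klre1, 321 ± 20.7 and 316 ± 43.5 CPM, and Klrb1a 305 ± 34.7 and 351 ± 21.7 CPM. Klrb1f averaged 250.0 ± 3.43 CPM in DOCA-salt and 233 ± 22.1 CPM in sham mice, Klrb1b 104 ± 25.9 and 125 ± 19.4 CPM, Klra1 119 ± 12.3 and 102 ± 34.8 CPM and Klrc3 45.9 ± 2.86 and 40.8 ± 6.66 CPM. Klra5, Klra6, Klra10 and Klri1 lay between 6.78 and 20.4 CPM on average and were not tested.

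In NK-like cells, where 63 of 6426 genes or 0.98% were called, lists of genes around the receptors gave 0 to 2 calls each. Of 18 adaptors and proximal signalling genes tested 0 rose and 2 fell: Fyn, a Src-family kinase, at 181 ± 24.9 CPM in DOCA-salt and 257 ± 9.83 CPM in sham mice (log2 change -0.61, edgeR adjusted p = 0.00177), and Grb2, an adaptor, at 70.5 ± 13.8 and 110 ± 14.3 CPM (SD, n = 4 each; log2 change -0.65, edgeR adjusted p = 0.0179). Ptpn6, the phosphatase SHP-1 recruited by inhibitory receptors, changed by 0.30 and Pik3cd by 0.23 on the log2 scale, and neither passed. None of the 6 tested ligand genes was called: H2-K1 changed by -0.17, H2-D1 by -0.15, B2m by -0.19 and Clec2i by 0.30 (edgeR adjusted p from 0.381 to 0.709).

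None of 15 other NK receptor genes was called, with Tigit at 0.54 (edgeR adjusted p = 0.247), Cd160 at 0.50, Il12rb1 at -0.43 and Crtam at -0.38 on the log2 scale. Of 14 NK transcription factors 2 fell, Irf8 (log2 change -0.55, edgeR adjusted p = 0.00974) and Prdm1 (-0.98, edgeR adjusted p = 0.0279), the repressor Blimp-1, while Tcf7 (0.20) and Runx3 (-0.20) did not pass. Of 9 cytotoxic granule genes 1 fell, the chymase Cma1, at 284 ± 42.9 CPM in DOCA-salt and 433 ± 39.97 CPM in sham mice (SD, n = 4 each; log2 change -0.64, edgeR adjusted p = 7.43e-04), and Srgn (-0.29), Prf1 (-0.26) and Ctsw (0.15) did not pass. Cma1, Irf8 and Prdm1 are also in the marker list of mature NK cells. The median log2 changes of these 5 lists, in the order given, were -0.01, -0.13, 0.09, -0.05 and -0.09, beside -0.16 for the 10 members and -0.0017 for all genes.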

How the data were processed

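The values that the authors deposited are raw UMI counts, 1 matrix per group, over 31053 genes and 20 antibody rows (16 surface antibodies, 4 hashtags). Cell Ranger 3.1.0 made them per the file headers, and Seurat 4 and mm10 are named in the submitters' processing notes. The other deposited lists hold text (feature names and barcodes). There were 0 unused value columns. Barcodes needed 200 or more genes and no more than 10% mitochondrial UMIs, which 7351 DOCA-salt and 4254 sham barcodes met. Scrublet through scanpy 1.11.5 removed 243 DOCA-salt (3.31%) and 53 sham (1.25%) doublets. A cell went to the mouse whose hashtag count was at least 2 times the next, which 321 DOCA-salt and 136 sham cells failed, and p-values measure only the spread between these hashtags. Single mice gave 764 to 2172 DOCA-salt and 624 to 1281 sham cells, with 2708758 to 9048096 and 1782050 to 4065978 UMIs.

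Clusters came from leidenalg 0.10.2 (resolution 1.0, within NK-like cells 0.5) and were named from at least 3 markers. The rules that leave mixed clusters without a name were made with the clusters in view. UMIs were summed per class and mouse, mice with under 10 cells of a class were left out, and the quasi-likelihood test of edgeR 4.0.16 (R 4.3.3, filterByExpr, TMM) was run over all genes of a class, with Benjamini-Hochberg adjustment and a threshold of 0.05. DESeq2 1.42.0 was an alternative. Single values were compared by two-sided exact permutation over mice, whose smallest p is 0.0286 for 4 against 4. Shares at 1000 UMIs are the expectation over all thinnings, and co-detection uses 1 fixed draw. Intervals are at 95%. The Clopper-Pearson and Poisson intervals cover counting error only, and the interval of the Klrk1 log2 change comes from the SE of the edgeR fit over mice. A 5′ UMI tags 1 end of a molecule, capture differs between transcripts, and levels are compared between cells rather than between genes.

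Tested on simulated data, the edgeR step recovered 47 of 100 genes changed 2-fold and 89 of 100 changed 4-fold in NK-like cells (6426 genes), and 32 and 82 of 100 in CD8 memory-like T cells (1677 genes), with 5 and 6 false calls. The simulation gave every gene the same fixed dispersion and drew the changed genes from all genes tested. These rates are therefore not the power for the members. The members and lists were chosen with earlier results of these data known. Named genes are the 10 members, other killer lectin-like receptor genes of at least 5 CPM in NK-like cells, up to 4 genes with the largest change of each other list plus any called, and the gene most correlated with each member over classes among those reaching 50 CPM in one. Positions and coding sequences are from the GENCODE annotation of GRCm38 and its transcripts, matched by gene symbol for all 10 members.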

Additional observations from a re-analysis of the deposited data

Results flagged for a closer look

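In groups of 4 mice, a mouse was singled out when its distance from the nearest other mouse, over the range of the group, exceeded the 95% critical value of Dixon's test. Chance singles out a mouse in about 1 in 20 groups, and 8 of 108 groups (7.41%) had one here. In NK-like cells, the highest sham mouse held Klra7 at 503.8 CPM, where the others had 346.4 to 370.7 CPM. The lowest DOCA-salt mouse held Klrc1 at 418.1 CPM, where the others had 441.2 to 445.8 CPM. In mature NK-like cells the lowest DOCA-salt mouse stood apart for Klra4 at 674.8 CPM (others 858.8 to 879 CPM), for Klra9 at 700.9 CPM (others 804.3 to 820.3 CPM) and for Klrk1 at 1252 CPM (others 1285 to 1290 CPM), and the highest DOCA-salt mouse for Klrc1 at 539.8 CPM (others 423.5 to 440.1 CPM). For the NK1.1 antibody, the lowest sham mouse had a centred log ratio of 1.999 in NK-like cells (others 2.141 to 2.163), and the highest sham mouse had 35.37 counts per B-like cell (others 27.39 to 28.07).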

How the results depend on the processing

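No paired analysis was possible because the replicates share no animal, litter or day across the groups in the labels. Of 573 refits of single members' log2 changes, 508 kept direction and side of the threshold, 29 lost and 6 gained a call, and 30 reversed; of 100 refits of detection shares, 97 kept and 3 reversed. Members called in NK-like cells were 1 without a filter on low counts (Klrg1) and 0 to 1 with a mouse left out. Of all genes there, DESeq2 called 40, no filter 108, a hashtag margin of 5 38, cells without a macrophage or B cell transcript 32, and fits without 1 mouse 31 to 67. Members called in mature cells were 0 under DESeq2, a margin of 5, doublets kept, Klr genes in the clustering, libraries clustered separately, resolution 0.5, cells without foreign transcripts and NK-like subclustering at resolution 1.0 (this last added, for the mature and less mature tests, after seeing the data), and 0 to 1 without a mouse. All genes called there were 22 (DESeq2), 77 (no filter), 26 (margin of 5), 88 (separate clustering), 16 (resolution 0.5), 15 (without foreign transcripts) and 13 to 51 without a mouse. Members called in less mature cells were 1 with doublets kept (Klra4, edgeR adjusted p = 0.0434) and 1 with the finer subclustering (Klra9, log2 change 1.32, edgeR adjusted p = 0.0153), and all genes called were 9 (DESeq2), 10 (doublets kept), 4 (Klr genes), 2 (resolution 0.5), 13 (without foreign transcripts), 3 (finer subclustering) and 12 to 32 without a mouse. Members called in CD8 memory-like T cells were 1 (DESeq2), 1 (doublets kept), 0 (Klr genes), 0 (separate clustering), 0 (resolution 0.5), 0 (mice with at least 5 cells in place of 10, added after seeing the data) and 0 to 3 without a mouse, and all genes called were 58 (no filter), 1 (mice with at least 5 cells), 3 (doublets kept), 10 (separate clustering), 2 (resolution 0.5) and 0 to 27 without a mouse: 0 without sham mouse 1, 1 without sham mouse 4 and 27 without DOCA-salt mouse 1.

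Reversed log2 changes were, in NK-like cells, Klrc1 at 0.0154 without foreign transcripts and Klra7 (-0.0107 to 0.22 without a mouse). In mature cells they were Klra7 at -0.0109 (doublets kept) and -0.036 (separate clustering), Klrc1 at 0.15 (without foreign transcripts), Klre1 at 0.0026 (margin of 5) and 0.0223 (resolution 0.5), and, without a mouse, Klra4 (-0.19 to 0.0133), Klrc1 (-0.26 to 0.0787) and Klre1 (-0.13 to 0.0707). In less mature cells they were Klra7 at 0.0142 (no filter), 0.20 (doublets kept), 0.12 (Klr genes), 0.43 (resolution 0.5) and 0.19 (without foreign transcripts), Klra9 at 0.52, 0.70, 0.81 and 1.32 and Klrd1 at 0.15, 0.11, 0.19 and 0.048 (doublets kept, Klr genes, resolution 0.5 and finer subclustering), Klrg1 at 0.46 (resolution 0.5), and, without a mouse, Klra7 (-0.10 to 0.17) and Klrd1 (-0.22 to 0.0346). In CD8 memory-like T cells Klrb1c ran from -1.02 to 0.20 without a mouse. The NK1.1 difference was 0.0198 as a centred log ratio. The mature share differed by -7.16 percentage points (finer subclustering) and -6.51 (doublets kept), and by 4.30 to 6.86 without a mouse. Unthinned detection differed by 0.559 points for Klra9 and 0.719 for Klrc1, and that of Klre1 by -6.08 to 1.06 without a mouse. The cause was not tested. No sham mouse had 10 less mature cells with libraries clustered separately (4 DOCA-salt against 0 sham mice), or 10 CD8 memory-like cells without foreign transcripts (3 against 0), so those gave no value. The CD8 memory-like class had 11 to 72 cells per mouse tested.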

Other observations

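A pair of Klra genes outside the 10 members was found in myeloid cells. Both were chosen after their values were seen. Klra2, which NK-like cells held at 0.949 CPM over all mice, stood in nonclassical monocyte-like cells at 326 ± 106 CPM in DOCA-salt and 258 ± 115 CPM in sham mice (SD, n = 4 each), with at least 1 UMI in 132 of 229 cells. Classical monocyte-like cells held it at 260 CPM over all mice, in 124 of 164 cells. Macrophage-like cells held it at 46.8 ± 14.0 CPM in DOCA-salt and 98.8 ± 42.0 CPM in sham mice (SD, n = 4 each), a difference that was not tested. Klra17 was at 68.8 CPM in neutrophil-like cells, in 20 of 167 cells, and at 41.0 CPM in cDC2-like cells. Of the neutrophil-like cells 154 came from DOCA-salt and 13 from sham hearts.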
